A study of Homo sapiens with 4 samples.

Results

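Among the promoter peaks of Flag-tagged FLI1 in HK1 cells treated with IFN-γ, 721 had tandem GGAA repeats within 100 bp of their summit. There were 18627 promoter peaks and 39654 peaks in all. HK1 is an established nasopharyngeal carcinoma cell line, and the cells overexpressed Flag-FLI1, so the signal is that of the tagged protein pulled down with an anti-Flag antibody and not of FLI1 at its native level. The control cells received PBS and the treated cells received IFN-γ for 24 h, and both carried Flag-FLI1. Each condition had 1 Flag library (n = 1), with 1 input library beside it that was not analysed here, so differences between the conditions have no replicate check and carry no p-value. The control library had 30819 peaks. A peak was taken as a member if it lay within 3 kb of the transcription start site (TSS) of any GENCODE 44 transcript and if at least 4 copies of GGAA in a row, on either strand, lay within 100 bp of its summit. Such a row of copies is called a run here, and each copy a unit. The members were thus selected on the presence and the summit of an IFN-γ peak, on the annotation and on the reference sequence of GRCh38, whereas the control library took no part in the choice. The cell type cannot be checked against marker genes in peak lists of this kind.

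FLI1 is a transcription factor of the ETS family, whose DNA-binding domain contacts the core GGAA. Classical ETS sites at promoters hold a single core within a longer motif. In Ewing sarcoma, the fusion protein EWSR1-FLI1, which keeps the DNA-binding domain of FLI1, is known to bind microsatellites made of consecutive GGAA copies and to activate genes near them, of which NR0B1 is the best-studied example. IFN-γ signals through its receptor and the JAK kinases to induce genes of antigen presentation and immune regulation.

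Sequences of the runs are printed from the reference, 5′ to 3′ on the strand that reads GGAA, with 20 bp on either side of the outermost run near the summit and with each run that reaches within 100 bp of the summit in capitals. Further copies can stand in lower case at the edges, as near LIMCH1, ELN and CAV1. The repeat lengths are those of the reference and not of the HK1 genome. The first set holds the 3 coding-gene members with the highest fold enrichment (LIMCH1, TRIM69, FOXK1), the longest run (ZNF131), a peak close to a coding TSS (ELN), and a peak called in the IFN-γ library alone (NTNG1), to show how differently the repeats are built.
LIMCH1, chr4:41419544-41419701, minus strand: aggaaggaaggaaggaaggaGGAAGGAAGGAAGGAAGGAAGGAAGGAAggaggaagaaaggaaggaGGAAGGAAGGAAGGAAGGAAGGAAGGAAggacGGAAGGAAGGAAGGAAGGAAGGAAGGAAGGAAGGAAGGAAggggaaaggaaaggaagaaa
TRIM69, chr15:44735396-44735499, plus strand: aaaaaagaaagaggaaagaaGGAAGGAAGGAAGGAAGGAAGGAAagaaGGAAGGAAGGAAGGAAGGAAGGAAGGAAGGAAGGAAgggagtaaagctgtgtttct
FOXK1, chr7:4681169-4681396, plus strand: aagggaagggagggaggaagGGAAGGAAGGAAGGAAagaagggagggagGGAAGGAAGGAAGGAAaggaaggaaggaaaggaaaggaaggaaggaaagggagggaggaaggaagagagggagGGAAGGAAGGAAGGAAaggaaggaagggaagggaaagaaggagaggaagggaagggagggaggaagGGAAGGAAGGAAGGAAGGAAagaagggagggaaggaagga
ZNF131, chr5:43063143-43063330, plus strand: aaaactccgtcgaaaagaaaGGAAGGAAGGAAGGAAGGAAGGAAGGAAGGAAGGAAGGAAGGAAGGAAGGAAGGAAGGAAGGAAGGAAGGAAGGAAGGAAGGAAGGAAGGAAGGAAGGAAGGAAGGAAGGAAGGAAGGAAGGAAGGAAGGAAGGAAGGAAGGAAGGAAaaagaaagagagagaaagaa
ELN, chr7:74052645-74052836, plus strand: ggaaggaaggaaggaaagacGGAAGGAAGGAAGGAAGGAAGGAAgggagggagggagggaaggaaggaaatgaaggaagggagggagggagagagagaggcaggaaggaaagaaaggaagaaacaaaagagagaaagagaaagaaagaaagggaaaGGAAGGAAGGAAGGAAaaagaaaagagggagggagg
NTNG1, chr1:107263254-107263341, minus strand: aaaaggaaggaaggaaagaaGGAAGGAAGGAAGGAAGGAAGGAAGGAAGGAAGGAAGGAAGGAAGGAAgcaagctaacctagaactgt

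The second set holds the members at genes tied to GGAA repeats or to EWSR1-FLI1 in Ewing sarcoma.
NR0B1, chrX:30310738-30310879, minus strand: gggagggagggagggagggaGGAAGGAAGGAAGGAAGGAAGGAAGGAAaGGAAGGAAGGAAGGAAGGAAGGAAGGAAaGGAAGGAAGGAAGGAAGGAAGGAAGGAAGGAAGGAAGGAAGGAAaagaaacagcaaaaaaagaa
CAV1, chr7:116523067-116523256, plus strand: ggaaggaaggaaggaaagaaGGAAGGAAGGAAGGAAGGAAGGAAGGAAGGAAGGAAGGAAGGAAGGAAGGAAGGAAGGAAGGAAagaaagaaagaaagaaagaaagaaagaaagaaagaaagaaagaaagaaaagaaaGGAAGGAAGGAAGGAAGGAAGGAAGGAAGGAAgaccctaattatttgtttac
GSTM4, chr1:109654216-109654328, plus strand: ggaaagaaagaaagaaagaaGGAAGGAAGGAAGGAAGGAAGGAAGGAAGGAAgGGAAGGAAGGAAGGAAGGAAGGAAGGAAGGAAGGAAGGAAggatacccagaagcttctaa
FCGRT, chr19:49511487-49511638, plus strand: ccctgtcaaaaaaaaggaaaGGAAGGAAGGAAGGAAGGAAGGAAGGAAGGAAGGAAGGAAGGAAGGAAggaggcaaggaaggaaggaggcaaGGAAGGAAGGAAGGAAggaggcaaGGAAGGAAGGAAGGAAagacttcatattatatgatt
CCK, chr3:42266507-42266590, minus strand: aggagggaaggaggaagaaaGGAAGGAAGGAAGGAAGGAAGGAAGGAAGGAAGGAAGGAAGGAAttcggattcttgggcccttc

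The third set holds a short and a long run whose peaks were lower in the IFN-γ library than in the control library.
PDIA5, chr3:123151978-123152037, minus strand: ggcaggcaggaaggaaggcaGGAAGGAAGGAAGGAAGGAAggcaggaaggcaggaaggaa
EPOR, chr19:11384686-11384777, minus strand: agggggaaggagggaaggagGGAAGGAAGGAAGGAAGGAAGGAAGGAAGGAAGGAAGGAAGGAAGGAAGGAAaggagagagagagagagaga

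The runs near ZNF131, NTNG1, CCK and EPOR were unbroken, with 37, 12, 11 and 13 units. Near NR0B1, 3 runs of 7, 7 and 11 units were set apart by single bases. FOXK1 had 4 short runs of 4 or 5 units within a longer purine stretch, and CAV1 had runs of 16 and 8 units. More than 1 run lay within 100 bp of the summit in 200 of the 721 members (27.7%). Each member was given the run with the most units within 100 bp of its summit, which for CAV1 was the run of 8 units. The median distance from the summit to the centre of that run was 32.5 bp, and 191 summits (26.5%) lay inside it.

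The lengths of the runs fell into 2 ranges. There were 137 members with 4 units and 93 with 5, then only 20 with 8, and again 64 with 12 and 59 with 13 (the plot of run length). In all, 275 members had 4 to 6 units, 49 had 7 or 8, and 397 had at least 9, a division chosen after the distribution was seen. The 161 IFN-γ promoter peaks with at most 3 units of a run inside the window, just outside the threshold, had a median fold enrichment of 6.31. Of these, 48.4% overlapped a control peak. The 138 promoter peaks at the threshold, with 4 units inside the window (for 1 of them part of a longer run), had a median of 6.70 and an overlap of 40.6%.

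**Figure D1:**
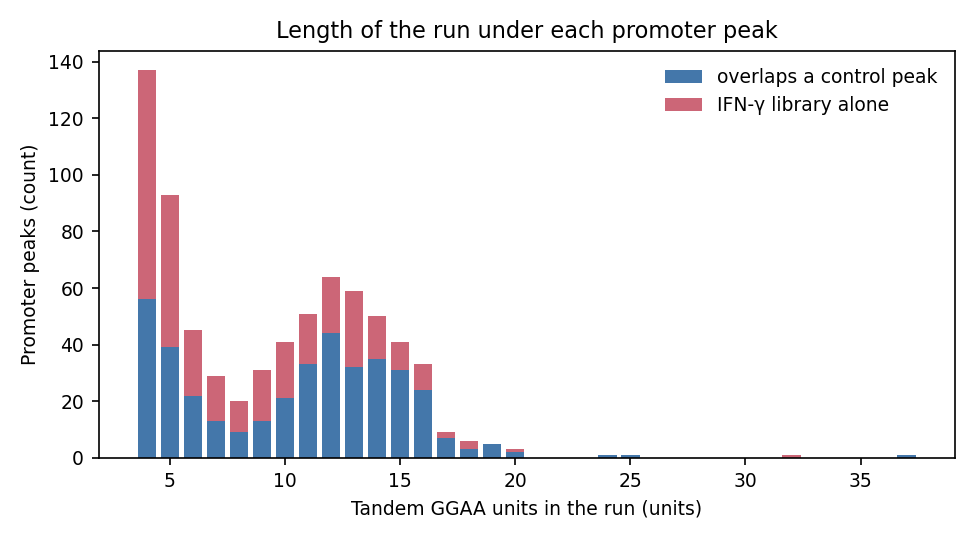
The number of IFN-γ promoter peaks on runs (vertical axis) by the number of tandem GGAA units in the run (horizontal axis). The run is the one with the most units within 100 bp of the summit. Peaks that overlapped a control peak are in blue and the others in red. The counts peak at 4 units and again at 12, and the longest run has 37 units.

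The position of these peaks around the TSS differed from that of other promoter peaks. The median distance from summit to nearest TSS was 1551 bp (quartiles 827 and 2280), against 199 bp for the 17906 promoter peaks without a run. Summits within 100 bp of a TSS made up 11 of the 721 members (1.53%) and 37.9% of the promoter peaks off runs, and summits within 1000 bp made up 234 (32.5%) and 76.8%. The limit of 3 kb is part of the rule for both classes. Upstream summits numbered 401 (55.6%), against 51.5% of promoter peaks off runs. The run read GGAA on the strand of the gene in 334 members (46.3%). A separate peak off runs lay within 500 bp of the same TSS for 76 members (10.5%), among them FOXK1, ZNF131, GSTM4 and CAV1.

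The annotation under these peaks also differed. Introns held 466 summits (64.6%) and intergenic sequence 236 (32.7%), with 15 in non-coding exons, 4 in UTRs and 0 in coding exons. The nearest TSS was that of a protein-coding gene for 325 members (45.1%), of a lncRNA for 215 (29.8%), of a pseudogene for 110 (15.3%) and of a small RNA gene for 63 (8.74%). For promoter peaks off runs these shares were 74.5%, 19.1%, 3.48% and 2.22%. The TSS was the one of the MANE transcript, the reference transcript chosen for each coding gene, in 65 of the 721 members (9.02%) and in 3575 of the 17906 peaks off runs. A member near a gene is therefore most often a peak in an intron or between genes at some distance from an annotated start.

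The sequence within 100 bp of the summits was poorer in GC than at other promoter peaks, with a median of 45.3% (quartiles 41.3 and 49.8) against 61.2%, and a median of 1 CpG against 12. The ETS octamer, searched as CCGGAAGT or CAGGAAGT on both strands, was present within 100 bp of the summit in 5 members (0.693%) and in 15.6% of promoter peaks off runs. Its letters cannot lie inside a run, although they may overlap the end of one. The AP-1 motif TGANTCA occurred in 30 members (4.16%) against 14%, and TTCNNNGAA, the letters of the IFN-γ activated site, in 21 (2.91%) against 5.28%. In promoter peaks off runs over 1000 bp from a TSS, with a GC content within the quartiles of the members, these shares were 33.0% and 8.21%. Neither motif can lie inside a run, which takes up part of the sequence searched. Matches of letters describe the sequence and do not show binding.

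A control peak overlapped 392 of the 721 members (54.4%, 95% interval 50.7 to 58.0), and 329 were called in the IFN-γ library alone. Over all IFN-γ promoter peaks the overlap was 76.9%. The share of the members lay below that of promoter peaks as a whole. Promoter peaks off runs over 1000 bp from a TSS overlapped a control peak in 53.2% (51.6 to 54.7), and those with a GC content within the quartiles of the members in 49.4% (47.5 to 51.3). By ranges of GC content, the overlap was 33.1% of members and 30.6% of promoter peaks off runs under 40% GC, 52% and 40.8% from 40 to 45%, and 61.3% and 53.4% from 45 to 50%. At 50% GC or more the order turned, with 65.2% of 178 members and 88.1% of promoter peaks off runs. Distal peaks on runs, more than 3 kb from any TSS, overlapped in 48.6% (47.0 to 50.3). These exact binomial (Clopper-Pearson) intervals cover counting error only.

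Applied to the control list, the same rule found 380 promoter peaks on runs, and 362 of them (95.3%, 92.6 to 97.2) overlapped an IFN-γ peak, against 79.5% of all control promoter peaks. Only 18 were called in the control library alone, with summit pileups from 7 to 15 fragments. These 18 included peaks near ENDOV, an endonuclease that acts on inosine, FGFR4, a receptor for fibroblast growth factors, and EIF4E, the factor that binds the mRNA cap. Almost every control promoter peak on a run thus overlapped an IFN-γ peak, whereas 329 members had no control counterpart. Of the 392 members with a control peak, 353 (90.1%) overlapped one that itself lay on a run by the same rule, and the summits of the pair were a median of 31 bp apart.

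The strength of the peaks was read from the fold enrichment, which MACS2 gives as the fragment pileup at the summit plus 1 over the local background plus 1. The median fold enrichment of the members in the IFN-γ library was 8.61 (quartiles 6.06 and 12.9, range 3.11 to 49.5), against 6.72 for promoter peaks off runs. It was 12.2 for the members with a control peak and 6.41 for those without. The same 392 sites had a median of 6.81 in the control library. Sorted by −log10 p, they stood at a median of the top 20.7% of the IFN-γ list but at the top 51.4% of the control list. Over all overlapping promoter peaks the order was the opposite, with 35.9% in the IFN-γ list and 29.6% in the control list. Promoter peaks off runs over 1000 bp from a TSS, with a GC content within the quartiles of the members, had the order of the members. Their medians were the top 33.1% of the IFN-γ list and the top 51.6% of the control list. In all, 361 of the 392 (92.1%) stood higher in the IFN-γ list than in the control list, against 39.4% of all overlapping promoter peaks. The share was 76.6% in the promoter peaks off runs that met these conditions of distance and GC content. Among distal peaks with a control peak it was 69.3% off runs and 93.9% on runs, so it was not particular to promoters. The top 10% of the IFN-γ list held 87 of the 392 (22.2%), and the top 10% of the control list held 14 (3.57%). These placements do not depend on how the libraries are scaled against each other, but they depend on the length of the lists. With the IFN-γ list shortened to the length of the control list, a setting chosen after seeing the data, 325 of the 381 pairs left (85.3%) stood higher in the IFN-γ list, against 30% of all overlapping promoter peaks, and the medians of the members were the top 26% and the top 49.7%.

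Summit pileups, the numbers of fragments over the summit, were recovered from the deposited fold enrichment and p-value and scaled by 1.46, the ratio of the lowest backgrounds of the libraries. The IFN-γ over control ratio of the scaled pileups had a median of 1.60 (quartiles 1.24 and 2.00, range 0.463 to 5.04) over the 392 members, against 0.870 over all 14316 overlapping promoter peaks. With the latter set to 1, the median of the members was 1.84. It was at least 1.5 in 226 members (57.7%), against 10.4% of all overlapping promoter peaks. The opposite difference, at least 1.5 times lower with IFN-γ, was found in 6 members (1.53%), against 25.2%. With the median of all overlapping promoter peaks set to 1, the shares at least 1.5 times higher were 70.7% and 16.9%. Those at least 1.5 times lower were 0.765% and 15.6%. Promoter peaks off runs over 1000 bp from a TSS, with a GC content within the quartiles of the members, lay between. With scaling by 1.46, 34.6% of these pairs were at least 1.5 times higher and 5.63% at least 1.5 times lower. For distal peaks on runs these shares were 53.4% and 0.980%, close to those of the members. Taken peak by peak, the exact binomial interval lay wholly above 1 in 133 members (33.9%) and wholly below 1 in 5 (1.28%). The same shares were not counted over all overlapping promoter peaks, so these counts have no background beside them. The median control pileup of the members was 15.5 fragments.

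**Figure D2:**
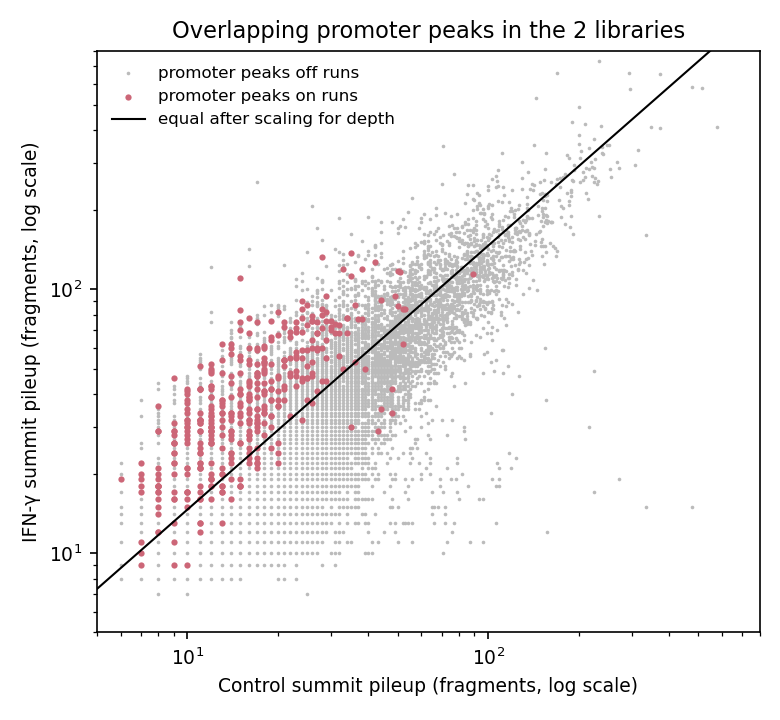
The fragment pileup at the summit in the IFN-γ library (vertical axis, log scale) against that of the overlapping control peak (horizontal axis, log scale), with promoter peaks on runs in red, promoter peaks off runs in grey and the line of equal pileup after scaling by 1.46. Of the 392 red points 349 lie above the line (89.0%), against 36.0% of all overlapping promoter peaks. The share is 70.3% for peaks off runs over 1000 bp from a TSS with a GC content within the quartiles of the members.

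The ratio went with base composition and with distance from the TSS in peaks off runs as well. Its median was 0.859 over promoter peaks off runs, 1.08 over those more than 1000 bp from a TSS, 1.22 over those with a GC content within the quartiles of the members, and 1.26 over those that met both conditions. In windows under 40% GC the median was 1.72 for members and 1.39 for promoter peaks off runs. The medians were 1.69 and 1.29 from 40 to 45% GC, 1.56 and 1.20 from 45 to 50%, and 1.5 and 0.819 at 50% or more. Members were therefore higher within each of these 4 ranges, and the part of GC content in the difference between the libraries was not tested. Distal peaks on runs had a median ratio of 1.55, close to that of the members, so the higher ratio was shared by runs away from promoters.

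The 329 members without a control peak had a median fold enrichment of 6.41 and a median pileup of 18 fragments in the IFN-γ library. The control signal at these sites is not listed, since the peak lists hold called peaks only, so no ratio can be given for them.

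Longer runs carried stronger peaks. The median fold enrichment in the IFN-γ library was 7.0 for members with 4 to 6 units, 7.92 with 7 or 8 and 10.3 with at least 9. The overlap with control peaks was 42.5% (36.6 to 48.6), 44.9% (30.7 to 59.8) and 63.7% (58.8 to 68.5) in the same order, and the median ratio of scaled pileups was 1.46, 1.54 and 1.67. Across peaks, Spearman's rho between units and fold enrichment was 0.346 over the 721 members, and between units and the ratio 0.142 over the 392. These correlations are across peaks of the same library, which are not independent replicates. Distance from the TSS went with fold enrichment hardly at all (rho = -0.0228, n = 721).

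A view that does not start from the peaks gave the same order. The reference held 2510 runs of at least 4 units within 3 kb of a TSS. An IFN-γ summit lay within 100 bp of 918 of them (36.6%, 34.7 to 38.5), and a control summit of 505 (20.1%, 18.6 to 21.7). Neighbouring runs can share a summit and are not independent. Of the runs with 4 units, 25% were under an IFN-γ summit and 13.1% under a control summit. The shares were 47.7% and 22.1% with 9 or 10 units, 75.9% and 44% with 13 or 14 units, and 81.3% and 56.0% with 15 or 16 units. With at least 17 units the shares were 76.5% and 64.7%, but only 34 runs were that long. Of the 584 promoter runs with at least 9 units, 391 (67.0%) were under an IFN-γ summit and 193 were not. Away from promoters, 35.1% of 14096 runs were under an IFN-γ summit and 17.8% under a control summit, close to the promoter values.

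The strongest member was in an intron of LIMCH1, which encodes an actin-associated activator of non-muscle myosin, 838 bp downstream of a TSS on chromosome 4 (peak 41419315 to 41420110). Its pileup was 28 fragments in control cells and 132 with IFN-γ, with fold enrichments of 11.6 and 49.5. The scaled ratio was 3.24 (95% interval 2.14 to 5.06), and the peak stood in the top 1.04% of the IFN-γ list and the top 21.0% of the control list. Its 3 runs, of 7, 7 and 10 units, are printed above.

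TRIM69, a tripartite motif E3 ubiquitin ligase, had the highest ratio of all 392 pairs. Its peak, 1047 bp upstream of the TSS on a run of 9 units, had 15 fragments in the control library and 110 with IFN-γ. The ratio was 5.04 (2.92 to 9.30). HAP1, a partner of huntingtin in vesicle transport, followed among the coding genes, with 15 and 75 fragments 2496 bp upstream and a ratio of 3.43 (1.96 to 6.44). ZNF131, a zinc finger transcription factor, had the longest run. At 1861 bp upstream its peak had 16 fragments in the control library and 68 with IFN-γ, a ratio of 2.92 (1.67 to 5.39). For these 3 genes the intervals lay wholly above 1, but TRIM69 and HAP1 were picked for high ratios among the 392 pairs. The intervals make no allowance for such picking. The other members among the 5 highest ratios lay near lncRNA genes, LINC02223 with 3.80, ENSG00000253642 with 3.51 and ENSG00000274213 with 3.35. Long runs did not all have a high ratio, since ENSG00000260580 with 25 units had 1.09 (0.501 to 2.46). The copy of SNORD116 with 24 units had 1.47 (0.867 to 2.56). The U6 pseudogene RNU6-660P with 32 units had no control peak, so no ratio can be given for it.

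FOXK1, a forkhead factor of metabolic regulation, had a strong peak over short runs. It lay 1036 bp upstream, with 35 fragments in the control library and 112 with IFN-γ, fold enrichments of 14 and 33.3 and a ratio of 2.20 (1.49 to 3.31). Other strong members had smaller ratios. GPR17, an orphan receptor of the oligodendrocyte lineage, had 52 and 84 fragments at 715 bp upstream on 11 units, a ratio of 1.11 (0.776 to 1.60). RAP1GAP, which inactivates the small GTPase Rap1, had 37 and 77 fragments at 220 bp upstream on 12 units, a ratio of 1.43 (0.954 to 2.18). PHOSPHO1, a phosphatase of bone mineralisation, had a higher one, with 50 and 117 fragments in an intron 901 bp downstream and a ratio of 1.61 (1.14 to 2.29). The intervals of GPR17 and RAP1GAP included 1, but that of RAP1GAP lay wholly above 1 with the median of all promoter pairs set to 1 (1.10 to 2.50), and both did without scaling (1.39 to 3.17 for RAP1GAP, 1.13 to 2.33 for GPR17). The other members among the 10 strongest lay near MIR4260, a microRNA gene, with a ratio of 2.48, near the lncRNA genes LINC01836 and LINC02458, with 2.08 and 2.24, and near ENSG00000258795, also a lncRNA gene, with 1.96.

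At coding genes with a member within 100 bp of a TSS the list was short, with ELN, ENSG00000288637, SLC27A1 and COQ10A. ELN, which encodes elastin, had a peak 88 bp upstream of one of its TSSs, with 26 fragments in the control library and 79 with IFN-γ and a ratio of 2.09 (1.32 to 3.39). SLC27A1, a fatty acid transporter, had 11 and 32 fragments at 44 bp upstream on 4 units, and its interval reached below 1 (ratio 2.00, 0.981 to 4.39), though not under either other scaling. COQ10A, a coenzyme Q binding protein of mitochondria, had 17 and 32 fragments at 56 bp upstream and a ratio of 1.29 (0.697 to 2.48). For none of these 4 genes was the TSS nearest to the peak that of the MANE transcript.

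Among the members without a control peak, the highest fold enrichment was 17.7, with 44 fragments, near the U6 pseudogene RNU6-175P at 2143 bp downstream on 16 units. The highest at coding genes was 14.1, with 48 fragments, in an intron 2463 bp downstream of a TSS of NTNG1, a membrane protein of axon guidance. CACNA1A, the pore subunit of a neuronal calcium channel, and PCYT1B, an enzyme of phosphatidylcholine synthesis, each had 35 fragments and a fold enrichment of 13, at 1501 and 2537 bp downstream. DIP2A had 33 fragments and 12.6 at 757 bp upstream. The other members of the 10 highest lay near the pseudogenes and small RNA genes RNY4P6, RNU7-82P, RPL7L1P13 and RPL31P51 and the lncRNA gene ENSG00000254836, with fold enrichments from 12.7 to 14.2. Even the highest of these peaks stood at the top 13.1% of the IFN-γ list, so the members without a control peak were of moderate strength. CACNA1A also had a second member with a control peak, at 631 bp upstream of another TSS, with 50 fragments in the control library, 86 with IFN-γ and a ratio whose interval included 1 (0.824 to 1.71). In all, 18 genes were nearest to more than 1 member.

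A few members went the other way. PDIA5, a protein disulphide isomerase of the endoplasmic reticulum, had 43 fragments in the control library and 29 with IFN-γ and a ratio of 0.463 (0.279 to 0.759). TBC1D4, a Rab GTPase-activating protein of insulin-stimulated glucose uptake, had 48 and 34 fragments at 230 bp upstream and a ratio of 0.486 (0.304 to 0.771). EPOR, the erythropoietin receptor, had 44 and 35 fragments at 307 bp upstream on 13 units and a ratio of 0.546 (0.340 to 0.871). ARRDC2, an arrestin-domain protein, had 48 and 42 fragments at 451 bp upstream and a ratio of 0.601 (0.388 to 0.929). Their intervals lay wholly below 1 at this scaling, but these genes were picked for low ratios and the intervals make no allowance for that. Without scaling the ratios stayed below 1 but all 4 intervals included it, with upper bounds of 1.11, 1.12, 1.27 and 1.35. With the median of all promoter pairs set to 1, the interval of ARRDC2 included 1 (0.445 to 1.07) and that of EPOR reached it (0.391 to 1.00). The lncRNA gene ENSG00000255143, with 35 and 30 fragments and a ratio of 0.589 (0.349 to 0.987), completed the 5 lowest, and its interval too included 1 under either other scaling. The 4 coding-gene peaks had 43 to 48 fragments in the control library, against a median of 15.5 over the members. DPF3, a subunit of a chromatin remodelling complex, had a long run of 20 units, 20 and 26 fragments and a ratio of 0.893 (0.479 to 1.69), which became 1.30 without scaling and 1.03 with the median of all promoter pairs set to 1. The same length of 20 units was found near ACACB, an enzyme of fatty acid metabolism, with a ratio of 0.999, and near the pseudogene ENSG00000257658, which had no control peak.

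**Figure D3:**
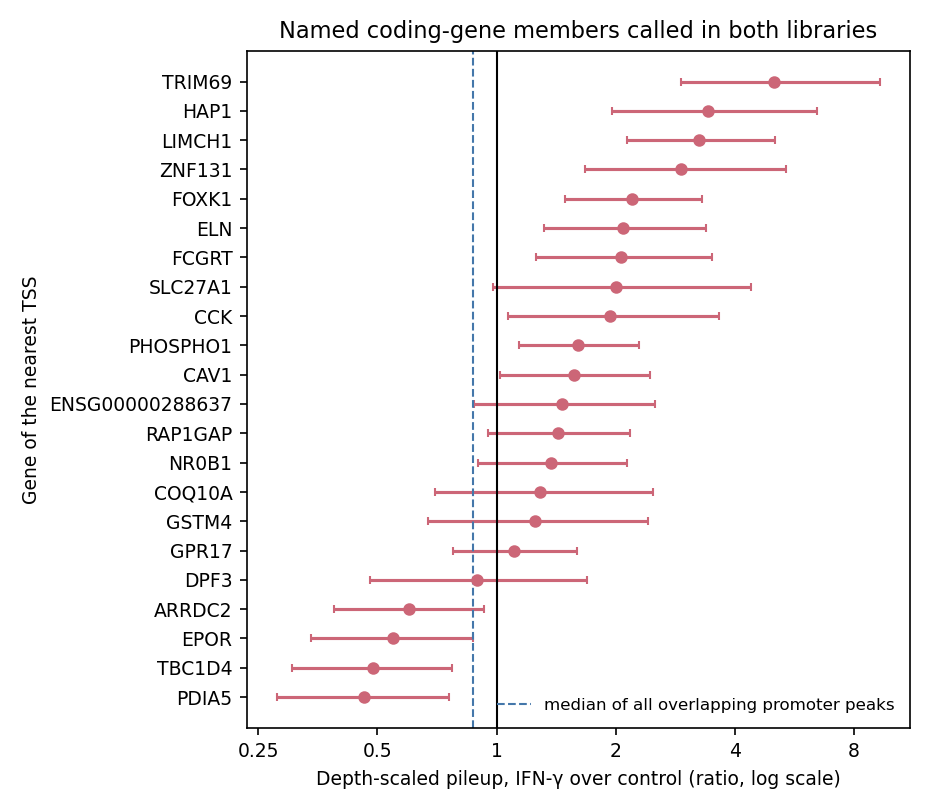
The ratio of depth-scaled summit pileups, IFN-γ over control (horizontal axis, log scale), with exact 95% binomial intervals, for named members nearest to coding genes and called in both libraries (vertical axis), with the solid line at 1 and the dashed line at 0.870, the median of all overlapping promoter peaks. TRIM69 is highest at 5.04 and PDIA5 lowest at 0.463, and the intervals of ARRDC2, EPOR, TBC1D4 and PDIA5 lie wholly below 1 at this scaling and include 1 without scaling. The intervals make no allowance for members picked by their ratio.

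Of 24 genes tied to GGAA repeats or to EWSR1-FLI1 in Ewing sarcoma, 7 had a run of at least 4 units within 3 kb of a TSS, and 6 had a member there. Over all 20033 protein-coding genes, 884 (4.41%) had such a run and 370 (1.85%) a member. The genes of the list were picked because many are known for their repeats, so the count is a description and not independent evidence. NR0B1, an orphan nuclear receptor, had 34 fragments in the control library and 68 with IFN-γ at 1377 bp upstream, fold enrichments of 16.2 and 24.2 and a ratio of 1.37 (0.897 to 2.14), whose interval lay above 1 under either other scaling. FCGRT, the heavy chain of the neonatal Fc receptor, had 22 and 66 fragments at 829 bp upstream, a ratio of 2.06 (1.26 to 3.51). CCK, the gut and brain peptide cholecystokinin, had 16 and 45 fragments at 343 bp upstream, a ratio of 1.93 (1.07 to 3.66). CAV1, the scaffold protein of caveolae, had 32 and 73 fragments at 1770 bp upstream, a ratio of 1.57 (1.02 to 2.45). GSTM4, a glutathione S-transferase, had 17 and 31 fragments at 1777 bp upstream, and its interval included 1 (ratio 1.25, 0.672 to 2.41).  The remaining gene with a member, FEZF1, a forebrain transcription factor, shared it with its antisense gene FEZF1-AS1, whose TSS was nearer. That peak had 17 and 23 fragments on 5 units and a ratio of 0.929, on the other side of 1 under either other scaling. All 6 peaks were thus also called in the control library. LIPI, a lipase, had a run of 11 units under no summit of either library.

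A short list of 35 genes of the IFN-γ response held its receptor and JAK genes, IRF and GBP genes, chemokine genes and genes of antigen presentation. None had a member within 3 kb of a TSS. An IFN-γ promoter peak of some kind was found for 27, but the share over all coding genes was not counted, so this number has no background. The only gene of the list with a run was CIITA, the regulator of MHC class II genes, whose run of 5 units was under no summit. The list is not complete, and other genes of interferon response and tryptophan breakdown had members. IFIT3, an interferon-induced antiviral gene, had one in an intron, 684 bp upstream of one of its TSSs, on 4 units. This peak was called in the IFN-γ library alone, as were 329 of the 721 members. It was weak, with 15 fragments and a fold enrichment of 4.42. KMO, an enzyme of the kynurenine pathway, had a member in an intron, 865 bp downstream of one of its TSSs, on 13 units. The KMO peak had 7 and 10 fragments and a ratio of 0.981 (0.337 to 3.04). For neither IFIT3 nor KMO was the TSS nearest to the peak that of the MANE transcript. With 1.85% of coding genes holding a member, a count of 0 in a list of this size says little about the list.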

How the data were processed

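Chromatin immunoprecipitation with an anti-Flag antibody was sequenced from HK1 cells overexpressing Flag-FLI1, in 1 control (PBS) and 1 IFN-γ library. According to the methods and the submitters' processing notes, the authors trimmed reads with Cutadapt 1.18, checked them with FastQC, used Bowtie2 2.3.4.1 for alignment to GRCh38 and Picard for removing duplicates, called peaks in each library with MACS2 2.1.2 and annotated them with ChIPseeker. Whether the input served as control in calling, and whether reads that align to several places were kept, is not given in the sources used here. The deposited lists give each summit's position, its fold enrichment (a ratio), its p-value and its q-value, both as −log10, and a score for display. The deposited score was not used.

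Whole-number pileups and backgrounds were solved from the deposited fold enrichment and −log10 p by the Poisson formula of MACS2, with a largest relative error of 6.21e-06, and were tested on simulated data. The pileup ratio was scaled by the lowest backgrounds, 1.06 and 1.54 fragments. The total number of reads per library is unknown. The lists held 30819 control and 39654 IFN-γ peaks with median summit pileups of 16 and 22 fragments, which limits the precision of single ratios. Overlap required 1 bp, and a peak that met several was paired with the one of widest overlap. Peaks were assigned to the gene of the nearest GENCODE 44 TSS. Sequences came from the GRCh38 reference. Intervals are exact 95% binomial intervals and cover counting error only, not the picking of named members by their values. With 1 library per condition, no test of the treatment was made.

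The members and gene lists were chosen with earlier results of these data known. The text names the 10 members with the highest IFN-γ fold enrichment with and without a control peak, the 5 longest runs (with the other members tied at the fifth), the 5 highest and 5 lowest ratios, members within 100 bp of a coding TSS and members at listed genes. Genes outside these sets (ENDOV, FGFR4, EIF4E, FEZF1, LIPI, CIITA, IFIT3, KMO and the second CACNA1A member) were chosen after their values were seen. A short list of genes of the study is not reported here. Calculations used Python 3.11.15 with numpy 2.4.6, pandas 2.3.3, scipy 1.17.1, matplotlib 3.10.9 and pysam 0.24.0, with samtools 1.23.1 for the genome index. The alternatives varied the list length, the units, the window, the promoter limit, the TSSs, the overlap and the scaling.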

Additional observations from a re-analysis of the deposited data

How the results depend on the processing

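No paired analysis was possible because there was 1 Flag library for the control and 1 for IFN-γ. There were 282 members with a promoter limit of 1 kb and 359 near coding TSSs alone, and the median distance to a TSS was 680 bp at 1 kb. The share of members with a control peak was 59.2% with lists of equal length, 60.6% at 6 units, 48.0% where overlap had to reach 50%, and 48.7% where summits had to lie within 100 bp. For control promoter peaks on runs the overlap was 91.8% with equal lists, 97.2% at 1 kb, 85.0% at 50% overlap and 90.0% by summits. The median fold enrichment of members was 9.28 with equal lists, 8.26 at 3 units, 9.74 at 6 and 8.98 in a window of 50 bp. The share of promoter runs under an IFN-γ summit was 32.6% with equal lists, 25.8% at 3 units, 52.3% at 6, 26.0% within 50 bp and 43.5% within 200 bp. The median pileup ratio was 1.84 with the median of all promoter pairs set to 1 and 2.33 without scaling, and no alternative brought it under 1. It was 1.63 with pairs taken from the control list, an alternative chosen after seeing the data. The settings change which peaks enter and how they are paired or scaled, and the cause of the shifts was not tested otherwise. The share of pairs standing higher in the IFN-γ list was 85.3% with lists of equal length, also chosen after seeing the data. No median ratio and no named ratio whose interval excluded 1 changed direction. The ratio of DPF3, whose interval included 1, did, and those of FEZF1, KMO and ACACB also crossed 1. Under other scalings 61 values of named members stayed within their interval and 3 left it. The absence of replicates and of the input libraries, the reference lengths of the repeats and the listing of called peaks alone limit what the lists show.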
